A study of Homo sapiens with 17 samples.

Results

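The 10 genes described here encode the factors that recognize collided ribosomes and clear away their consequences. They were taken as a list of symbols (*ZNF598*, *EDF1*, *GIGYF1*, *GIGYF2*, *EIF4E2*, *ASCC2*, *ASCC3*, *NEMF*, *LTN1* and *PELO*) by their role, with earlier results of these data known. All 10 were found among the 19222 genes of the 1 h table and the 9982 genes of the 2 h tables. The cells were HEK-293T, a wild-type line of human embryonic kidney cells. In the 1 h experiment, 3 untreated libraries and 3 libraries with 1.8 µM emetine, an alkaloid that blocks translocation of the ribosome, all received 500 µM 4-thiouridine (s4U) for 1 h, and 1 untreated and 1 emetine library (1.8 µM, 1 h) received none. In the 2 h experiment, 9 libraries labeled with 250 µM s4U came from untreated cells and from cells given 1.8 µM or 240 µM emetine for 2 h, 3 of each kind. In TimeLapse sequencing (TL-seq), s4U built into new RNA is recoded by chemistry and read as T-to-C conversions, so that reads from RNA made during the labeling hour can be told from older reads. Nothing in the labels says that replicates came from separate cultures, so p-values measure the spread between these libraries, which may be technical. In the model-based tests this spread was partly pooled over genes.

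When a ribosome stalls on an mRNA, the ribosome behind it runs into it, and the interface between them is recognized as a sign of a failed translation event. ZNF598 is the ubiquitin ligase that marks proteins of the small subunit of collided ribosomes, and EDF1 binds the same interface and brings in the repressors GIGYF1 or GIGYF2 with the cap-binding protein EIF4E2, which lower initiation on the mRNA. ASCC3, a helicase, and ASCC2, its ubiquitin-binding partner, split the ubiquitylated ribosomes, and PELO rescues ribosomes stalled at the end of a broken mRNA. NEMF and the ubiquitin ligase LTN1 then act on the large subunit that still holds the unfinished peptide. Because emetine at a low dose stops some ribosomes and not others, it is used to provoke collisions, and the question here was whether the mRNAs of the machinery itself changed in level or in turnover.

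Between 22246279 and 40018063 reads were given to genes in the 6 libraries with s4U, and each of the 10 genes had between 532 and 10809 reads in every library of the 1 h experiment. Emetine replicate 3 stood apart. Over 13500 genes, its distance from the emetine mean had an SD of 0.27 (log2), where the other libraries had 0.12 to 0.17, and this distance followed transcript length across genes (Spearman 0.705, and −0.605 to 0.144 in the others). Without it the biological coefficient of variation fell from 13.3% to 6.43%. The share of new reads also differed between libraries, from 7.84% to 11.7% in the untreated and from 9.19% to 9.96% in the emetine libraries. *VIM* (459 to 657 read counts scaled to library size, CPM), *KRT18* (33.2 to 61.0 CPM), *KRT8* (3.75 to 7.06 CPM) and *PAX2* (1.23 to 2.93 CPM) were read in all 8 libraries, *ALB* and *PECAM1* stayed at or below 0.359 and 0.0717 CPM, *COL1A1* was at 19.4 to 28.1 CPM, and *PTPRC*, *CD3E* and *HBB* were not listed.

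In untreated cells the levels of the 10 mRNAs, per kilobase of transcript, spanned from *EDF1* at 452 ± 12.1 CPM per kb to *LTN1* at 3.64 ± 0.0995 CPM per kb (mean ± SD, n = 3 libraries). *EIF4E2* followed *EDF1* at 113 ± 3.14 CPM per kb, and *ASCC2* (48.3 ± 2.67) and *ZNF598* (46.2 ± 0.260) came next. *GIGYF1* (13.6 ± 1.02), *PELO* (10.6 ± 0.455), *GIGYF2* (8.16 ± 0.185), *ASCC3* (6.75 ± 0.590) and *NEMF* (4.56 ± 0.222) lay between these and *LTN1*. No pair of neighbors in this order overlapped between libraries. The helicase *ASCC3* thus stood below its partner *ASCC2* on this scale, the reverse of their order in the 2 h means given below. The order rests on 1 transcript model per gene.

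The fraction new, the share of a gene's reads that came from RNA made in the labeling hour, set *PELO* apart from the other 9 genes before any treatment. *PELO* had a fraction new of 43.8%, 62.0% and 60.7% in untreated replicates 1, 2 and 3, so that most of its reads in replicates 2 and 3 were from RNA less than 1 h old. Its half-life, computed under a steady state and labeling from the start of the hour, was 1.2, 0.716 and 0.743 h (mean 0.887 ± 0.274 h), and 3.50% of the 10763 genes measured had a shorter mean. The other 9 genes had fractions new of 3.57% to 22.9%. *GIGYF2* (3.90 ± 1.72 h), *GIGYF1* (3.95 ± 0.933 h), *LTN1* (4.58 ± 0.255 h), *NEMF* (4.64 ± 1.69 h), *ASCC3* (5.66 ± 1.33 h), *ZNF598* (5.84 ± 1.72 h) and *ASCC2* (6.54 ± 1.63 h) followed in half-life, each overlapping its neighbor in this order. *EIF4E2* (10.5 ± 3.24 h) and *EDF1* (15.0 ± 3.92 h) had the longest half-lives of the 10 and overlapped each other, while *EIF4E2* did not overlap *ASCC2* and *PELO* did not overlap *GIGYF2*. With the share of reads holding at least 2 conversions in place of the fitted fraction, *PELO* still had the shortest mean, 1.27 h, and *EDF1* the longest, 25.6 h.

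**Figure D1:**
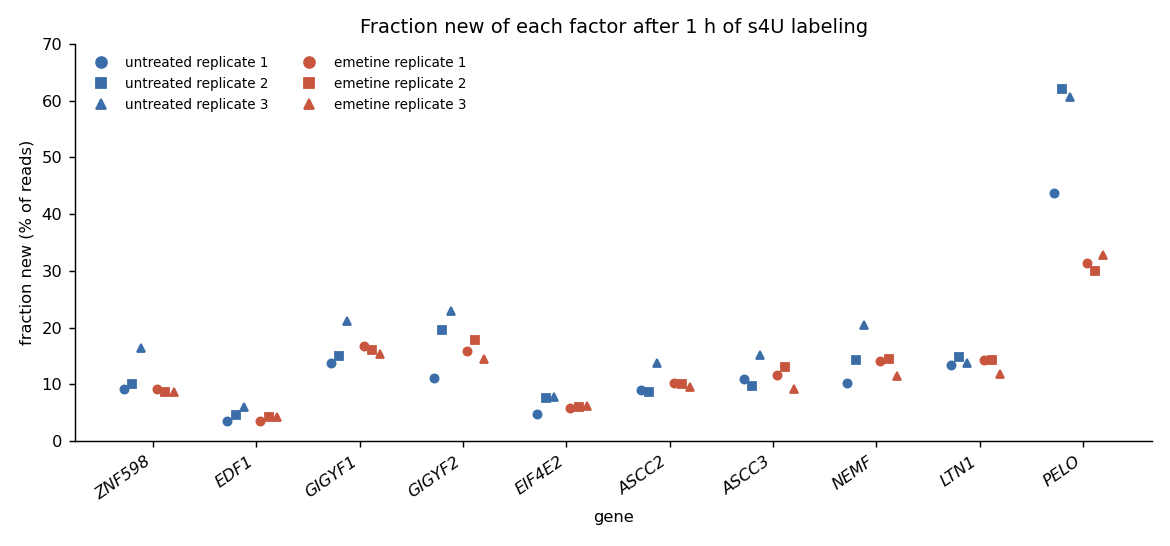
Fraction new (percent of reads, vertical axis) of each of the 10 genes in the 3 untreated (blue) and 3 emetine (red) libraries with s4U, with the shape of a point giving its replicate number. The *PELO* points lie at 43.8% to 62.0% in untreated and 29.9% to 32.8% in emetine libraries, and the points of the other 9 genes lie at 3.54% to 22.9%.

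After 1 h of emetine, no mRNA of the group passed the threshold for a change in level, and *PELO* was the only gene of the 10 to pass it for fraction new. In edgeR's quasi-likelihood test with Benjamini-Hochberg adjustment over 13776 genes, 0 of 10 genes had an adjusted p under 0.05, where 2.64% of all genes were raised and 0.0436% lowered. At an unadjusted p under 0.05 there were 5, *NEMF*, *PELO*, *LTN1*, *GIGYF2* and *ASCC3*, all higher with emetine, where 14.9% of all genes were higher at that level. DESeq2's Wald test called 1, *NEMF*, where it raised 5.95% of all genes, and edgeR without emetine replicate 3 called 2, *NEMF* and *PELO*, where it raised 10.1%. The median log2 fold change of the 10 was 0.22, beside 0.030 for all genes tested, and 7 were higher and 3 lower. Without emetine replicate 3 this median was 0.13, beside 0.0093 for all genes. Untreated and emetine libraries did not overlap for 8 of the 10, but this was so for 34.7% of all genes. Scaling by the spike-in reads moved the median of all genes from 0.030 to 0.71, and the level changes of the 10 then had SEs of 0.45 to 0.48. Spike-in reads numbered 126672, 325443 and 120560 in emetine replicates 1, 2 and 3, beside 34193101, 40018063 and 24241615 gene reads. The paper describes spike-in controls for the 2 h libraries, and how those of the 1 h libraries were added is not given. Every level here is therefore relative to the other mRNAs of its library. A level is also an average over a culture, in which fewer expressing cells and less RNA per cell cannot be told apart. Levels are CPM after TMM normalization, which scales each library so that most genes do not differ.

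**Figure D2:**
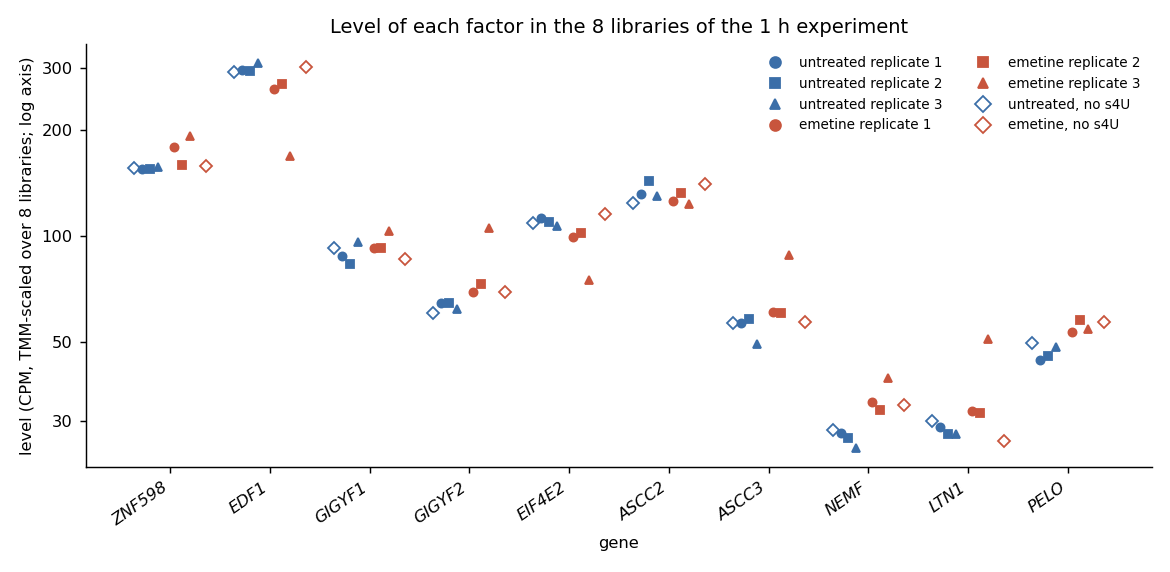
Level of each gene (CPM scaled over all 8 libraries of the 1 h experiment, log axis), with filled points for the libraries with s4U and open diamonds for the single libraries without it. Emetine replicate 3 (red triangles) is the highest of the 8 libraries for *ZNF598*, *GIGYF1*, *GIGYF2*, *ASCC3*, *NEMF* and *LTN1* and the lowest for *EDF1*, *EIF4E2* and *ASCC2*.

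The mRNAs of the sensors *ZNF598* and *EDF1* did not pass the threshold for level or fraction new. *ZNF598* (chromosome 16, 1997654 to 2009821, minus strand) was at 155, 155 and 156 CPM in untreated and at 178, 159 and 192 CPM in emetine libraries. All 3 emetine values lay above the untreated ones, which were close together. The log2 fold change was 0.18 (SE 0.094, adjusted p = 0.271), with a 95% interval of −0.03 to 0.40. *EDF1* (chromosome 9, 136862119 to 136866308, minus strand) was at 296, 294 and 309 CPM in untreated and at 261, 270 and 169 CPM in emetine libraries. The emetine values were lower, replicate 3 by far the lowest. The log2 fold change was −0.36 (SE 0.16, adjusted p = 0.236) and became −0.17 (adjusted p = 0.057) without emetine replicate 3. With spike-in scaling it was 0.30 (SE 0.45). The fraction new of *EDF1*, 3.57%, 4.65% and 5.96% in untreated and 3.54%, 4.21% and 4.23% in emetine libraries, overlapped between the groups. Labeled *EDF1* reads, the CPM times the fraction new, were at 10.6, 13.7 and 18.4 CPM in untreated and at 9.24, 11.4 and 7.14 CPM in emetine libraries. They overlapped (log2 change −0.58, SE 0.24, adjusted p = 0.274 by limma), and without untreated replicate 1 the change was −0.77 (adjusted p = 0.0123, where 16.1% of all genes were lowered), while with spike-in scaling of all libraries it was 0.02. The fraction new of *ZNF598* was 9.27%, 10.1% and 16.3% against 9.25%, 8.65% and 8.69%. These groups did not overlap, but replicates 1 differed by less than the spread between the emetine libraries, and limma on the logit gave a change of −0.30 (SE 0.22, adjusted p = 0.559).

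The translational repressors moved in different directions, none past the threshold. *GIGYF2* (chromosome 2, 232697299 to 232860605, plus strand), the adaptor that EDF1 recruits, was at 64.5, 64.8 and 62.1 CPM in untreated and at 69.2, 72.9 and 105 CPM in emetine libraries. Emetine replicate 3 stood well above the other two emetine libraries. The log2 fold change of 0.37 (SE 0.15, adjusted p = 0.211) was 0.16 without that library. Its paralog *GIGYF1* (chromosome 7, 100679507 to 100694250, minus strand) was at 87.8, 83.1 and 96.3 CPM in untreated and at 92.6, 92.2 and 103 CPM in emetine libraries, which overlapped (log2 fold change 0.11, SE 0.094, adjusted p = 0.491). *EIF4E2* (chromosome 2, 232550659 to 232583644, plus strand) was at 113, 109 and 106 CPM in untreated and at 99.4, 102 and 75.2 CPM in emetine libraries. These groups did not overlap, with a log2 fold change of −0.24 (SE 0.12, adjusted p = 0.261) that became −0.11 without emetine replicate 3. With spike-in scaling it was 0.42 (SE 0.46). The ratio of *GIGYF1* to *GIGYF2* reads within a library, which no scaling can move, was 1.36, 1.28 and 1.55 in untreated and 1.34, 1.26 and 0.977 in emetine libraries. The groups overlapped, and a two-sided exact permutation test gave p = 0.2 (adjusted over 3 pairs 0.3).

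In the complex that splits collided ribosomes, the helicase and its partner differed in direction. *ASCC3* (chromosome 6, 100508194 to 100881372, minus strand) was at 56.8, 58.2 and 49.3 CPM in untreated and at 60.9, 60.5 and 88.4 CPM in emetine libraries. Emetine replicates 1 and 2 lay close above the highest untreated library, and replicate 3 lay far above. The log2 fold change was 0.35 (SE 0.15, adjusted p = 0.228), and 0.15 without emetine replicate 3. *ASCC2* (chromosome 22, 29788609 to 29838304, minus strand) was at 131, 143 and 130 CPM in untreated and at 126, 132 and 123 CPM in emetine libraries, which overlapped (log2 fold change −0.08, SE 0.085, adjusted p = 0.553). With spike-in scaling this value was 0.57 (SE 0.46). The ratio of *ASCC2* to *ASCC3* reads was 2.31, 2.46 and 2.63 in untreated and 2.07, 2.19 and 1.39 in emetine libraries. It was lower in all 3 emetine libraries, by 0.42 log2 units (0.21 without emetine replicate 3), and the exact permutation test gave p = 0.1, the smallest that 3 libraries against 3 allow (adjusted p = 0.3). Without s4U, the untreated library had a ratio of 2.19 and the emetine library of 2.47, the opposite order.

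Over all 6 libraries with s4U, the mRNAs of the factors that act on the unfinished peptide had the largest positive fold changes in level of the 10. *NEMF* (chromosome 14, 49782083 to 49852821, minus strand), which holds the peptide-bearing large subunit and extends the peptide, was at 27.6, 26.8 and 25.1 CPM in untreated and at 33.8, 32.1 and 39.6 CPM in emetine libraries. Every emetine library lay above every untreated one. Its log2 fold change of 0.41 (SE 0.11) had the smallest p-value of the 10, 0.00490, and an adjusted p of 0.0957. DESeq2's Wald test put the adjusted p at 0.0353, and edgeR without emetine replicate 3 at 0.0170 with a log2 fold change of 0.32, while over all alternatives it ran from 0.0170 to 0.341. Part of *NEMF*, 2250 exon bases in GENCODE 44, lies opposite exons of *KLHDC2*, and whether the reads were counted by strand is not given in the sources used here. *LTN1* (chromosome 21, 28928144 to 28992956, minus strand), the ligase that marks the peptide, was at 28.8, 27.4 and 27.6 CPM in untreated and at 32.0, 31.6 and 51.2 CPM in emetine libraries. Its log2 fold change of 0.45 (SE 0.18, adjusted p = 0.205) was the largest of the 10. Without emetine replicate 3 it was 0.19, below that of *PELO* at 0.27. The ratio of *NEMF* to *LTN1* reads, 0.959, 0.977 and 0.911 in untreated and 1.06, 1.02 and 0.774 in emetine libraries, overlapped between the groups (exact permutation p = 1.0). Without emetine replicate 3 its mean difference turned from −0.01 to 0.13 log2 units.

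*PELO* (chromosome 5, 52787916 to 52804044, plus strand), the rescue factor, changed in its fraction new and its unlabeled reads more than in its level. Its level was 44.5, 45.8 and 48.4 CPM in untreated and 53.5, 57.7 and 54.6 CPM in emetine libraries. The 3 emetine libraries lay close together above the untreated ones, and emetine replicate 3 was between the other two. The log2 fold change was 0.26 (SE 0.085, adjusted p = 0.158), and 0.27 (adjusted p = 0.0159) without emetine replicate 3. Its fraction new fell from 43.8%, 62.0% and 60.7% in untreated to 31.5%, 29.9% and 32.8% in emetine libraries. The paper states that such a fall could come from less transcription or from less decay, and which applied here was not tested. The change in logit was −1.01 (SE 0.23, adjusted p = 0.00313 by limma over 10763 genes). Of these genes, 4.83% were lowered and 0.214% were raised, and 1.62% had a more negative change than *PELO*. The call was lost when certain libraries were left out. The adjusted p was 0.0628 (change −0.97) when emetine replicate 2 was omitted, 0.0830 (−0.87) when untreated replicate 2 was, and 0.0774 (−0.90) when untreated replicate 3 was. With each library centered on its median it was 0.0101 for a change of −0.88.

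When the level was divided into its parts, the older *PELO* reads rose. Unlabeled reads, the CPM times the share of reads that were not new, were at 25.0, 17.4 and 19.0 CPM in untreated and at 36.7, 40.4 and 36.7 CPM in emetine libraries. These groups lay far apart, with a 1.85-fold rise (log2 change 0.89, SE 0.14, adjusted p = 0.00743 by limma on log2(CPM + 0.5)). *PELO* was the only gene of the 10 to pass the threshold for unlabeled reads, where 7.30% of all genes were raised and 0.0929% lowered. Without untreated replicate 3 the adjusted p was 0.0583. Labeled *PELO* reads were at 19.5, 28.4 and 29.4 CPM in untreated and at 16.9, 17.3 and 17.9 CPM in emetine libraries. They were lower in every emetine library, but the log2 change of −0.53 (SE 0.23) had an adjusted p of 0.288, and with spike-in scaling it was 0.08. Without untreated replicate 1 it was −0.72 (adjusted p = 0.00548), in the fit that lowered 16.1% of all genes. No gene of the 10 passed the threshold for labeled reads by limma, and 0.260% of all genes were raised and 0.632% lowered. At an unadjusted p under 0.05, 2 of the 10 (*EDF1* and *PELO*) were lower and 0 higher, where 10.6% of all genes were lower and 1.64% higher. As a share of the mean untreated level, the unlabeled *PELO* reads at the end of the hour amounted to 44.3% ± 8.64 in untreated and 82.1% ± 4.63 in emetine libraries (SD, n = 3). The mean emetine share was 119% for *LTN1*, 115% for *NEMF*, 114% for *ASCC3*, 109% for *GIGYF2* and 104% for *ZNF598*. For *EDF1*, *EIF4E2*, *ASCC2* and *GIGYF1* it ran from 74.8% to 90.5%. At a steady state, older RNA cannot exceed the whole untreated level. On this relative scale the *PELO* share is therefore not a measure of RNA that survived the hour.

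**Figure D3:**
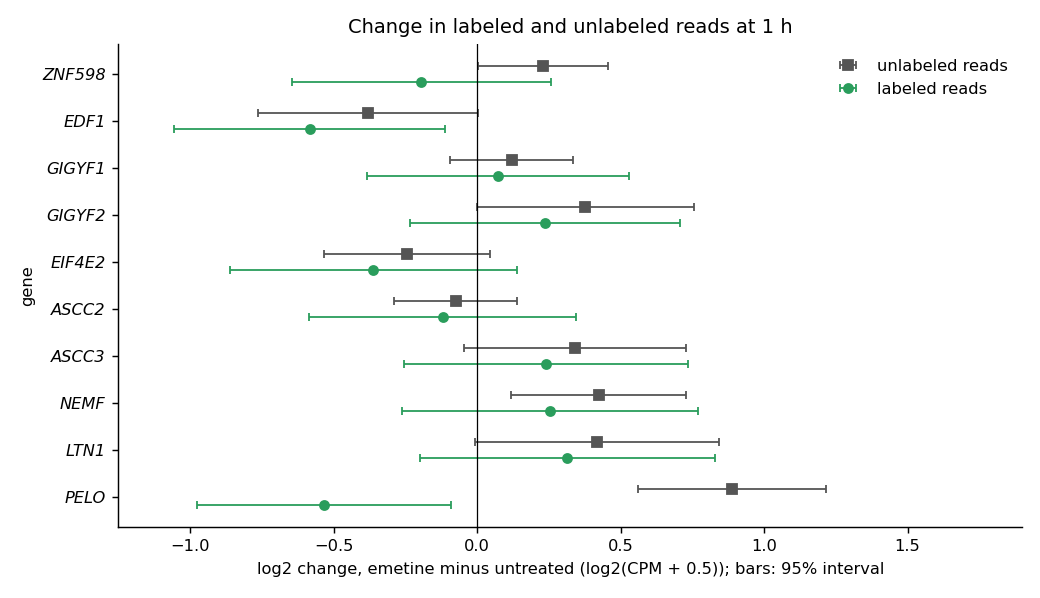
Log2 change (emetine minus untreated, log2(CPM + 0.5), horizontal axis) in unlabeled (gray squares) and labeled (green circles) reads of each gene, with 95% intervals from limma over 3 libraries against 3. *PELO* has the largest rise in unlabeled reads, 0.89, together with a lower value for labeled reads, −0.53, which did not pass the threshold and is 0.08 with spike-in scaling, while the values of the other 9 genes have the same sign in both kinds of read, except for *ZNF598*.

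The reads themselves showed the same difference without a model. *PELO* reads with at least 2 T-to-C conversions made up 34.5% of 1240, 48.9% of 1600 and 45.6% of 1025 reads in untreated replicates 1, 2 and 3. In emetine replicates 1, 2 and 3 they made up 21.4% of 1875, 23.9% of 2310 and 23.2% of 1455 reads. The lowest untreated share had a 95% Wilson interval of 31.9% to 37.2% and the highest emetine share of 22.2% to 25.7%, which cover counting error only. These shares also depend on the T positions per read, on average 36.7, 42.0 and 35.3 in untreated and 31.3, 39.5 and 31.2 in emetine replicates. Of all T positions in *PELO* reads, 4.18%, 5.76% and 5.25% were converted in untreated and 2.79%, 2.69% and 2.91% in emetine replicates. In the libraries without s4U, 0 of 1175 (untreated) and 0 of 1811 (emetine) *PELO* reads had 2 or more, which allows shares of up to 0.255% and 0.166%. The fraction new was also lower with emetine in the reads across a splice junction (41.7%, 57.0% and 62.9% in untreated, 29.9%, 26.3% and 34.2% in emetine libraries) and in all other reads (44.1%, 62.8% and 60.3%, against 31.7%, 30.6% and 32.6%). In neither kind of read did the groups overlap, and the exact permutation test gave p = 0.1 for each, the smallest possible. *PELO* lies within *ITGA1* on the same strand and shares 499 exon bases with it in GENCODE 44, and *ITGA1* was at 2.47 to 5.37 CPM in these libraries, and no more than 7.67% of its reads were estimated as new.

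The 3′ UTR of *PELO* holds the AU-rich heptamer TATTTAT, an element found in the 3′ UTRs of many short-lived mRNAs. The search was on the transcript strand of 1 GENCODE 44 transcript per gene. Of the 10 genes, 5 hold at least 1 copy, against 36.8% of 10383 genes tested with a coding transcript. Among genes with a 3′ UTR within 0.8 to 1.2 times the length of that of a member, the share was 45.3% for *PELO* (2204 bases), ran from 6.41% (*EDF1*) to 61.5% (*GIGYF2*) and had a mean of 32.5% over the 10. The sites of *PELO*, of *LTN1*, which has the most copies, and of *NEMF* are shown with 7 bases on each side, in the direction of the transcript and with the heptamer in capitals. They are at chr5:52802677-52802697 and chr5:52802681-52802701 (plus strand), at chr21:28929993-28930013, chr21:28929079-28929099 and chr21:28929021-28929041 (minus strand) and at chr14:49782953-49782973 (minus strand) of GRCh38.
PELO site 1: gctatatTATTTATttatttt
PELO site 2: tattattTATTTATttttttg
LTN1 site 1: taagcctTATTTATtagttat
LTN1 site 2: cgaattaTATTTATagatgca
LTN1 site 3: tgtaaaaTATTTATtgtcttc
NEMF site 1: taggcatTATTTATgaagcct
The pair of *PELO* copies overlap, starting 844 and 848 bases after the stop codon, and lie in a run of A and T. *GIGYF2* holds 2 copies and *ASCC3* 1, and no copy was found in *ZNF598*, *EDF1*, *GIGYF1*, *EIF4E2* or *ASCC2*. The mean half-lives of the 5 genes with a copy ran from 0.887 h (*PELO*) to 5.66 h (*ASCC3*), and those of the 5 without from 3.95 h (*GIGYF1*) to 15.0 h (*EDF1*). *LTN1*, with more copies than *PELO*, had a half-life of 4.58 h.

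Apart from *PELO*, the fraction new of these mRNAs did not pass the threshold in any direction. Of the 10 genes, 2 had groups that did not overlap, *ZNF598* and *PELO*, where 19.0% of all genes did. *GIGYF1* was at 13.8%, 15.0% and 21.3% in untreated and at 16.7%, 16.1% and 15.3% in emetine libraries, and *GIGYF2* at 11.2%, 19.6% and 22.9% against 15.9%, 17.8% and 14.4%. *EIF4E2* (4.74% to 7.79% against 5.82% to 6.15%), *ASCC2* (8.65% to 13.8% against 9.59% to 10.3%), *ASCC3* (9.68% to 15.2% against 9.18% to 13.0%), *NEMF* (10.3% to 20.5% against 11.6% to 14.4%) and *LTN1* (13.5% to 14.9% against 11.9% to 14.3%) overlapped as well. In 8 of the 9 genes other than *PELO* the highest value of all 6 libraries was that of untreated replicate 3, the library with the largest share of new reads. Changes in logit ran from −0.30 (*ZNF598*) to −0.03 (*GIGYF1*), with 95% intervals reaching from −0.73 to 0.39. The paper states that, with short s4U labels, TL-seq responds more to changes in transcripts that turn over fast. These 9 genes had mean half-lives of 3.90 to 15.0 h, so slower decay would move their fraction new little within a 1 h label. The intervals therefore cannot tell whether their decay slowed as that of a short-lived mRNA can. The median over the 10 was −0.09, beside −0.16 over all genes.

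The level changes of the 10 mRNAs followed transcript length, as the deviation of emetine replicate 3 did. Across the 10 genes the Spearman correlation of the log2 fold change with transcript length was 0.794. It was 0.624 without emetine replicate 3, 0.576 after a trend on length and GC content was removed from each library, and −0.188 for the ratio of the 2 libraries without s4U. The genes share these libraries, so the values are a description. The shortest transcripts, *EDF1* (0.662 kb) and *EIF4E2* (0.967 kb), had the lowest fold changes, and 3 of the longest, *LTN1* (7.68 kb), *GIGYF2* (7.82 kb) and *ASCC3* (8.11 kb), were among the 4 highest. With that trend removed, the log2 fold changes ran from −0.15 (*EDF1*) to 0.17 (*LTN1* and *NEMF*), and that of *GIGYF1* turned to −0.01. Their median was then 0.11, beside −0.04 for all genes. The coding sequences of *NEMF*, *LTN1* and *ASCC3* also had few codons ending in G or C (33.3%, 34.7% and 34.9%, with a median of 58.3% over all genes), and that of *ZNF598* many (80.5%). What part length or base content has in these level changes was not tested.

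**Figure D4:**
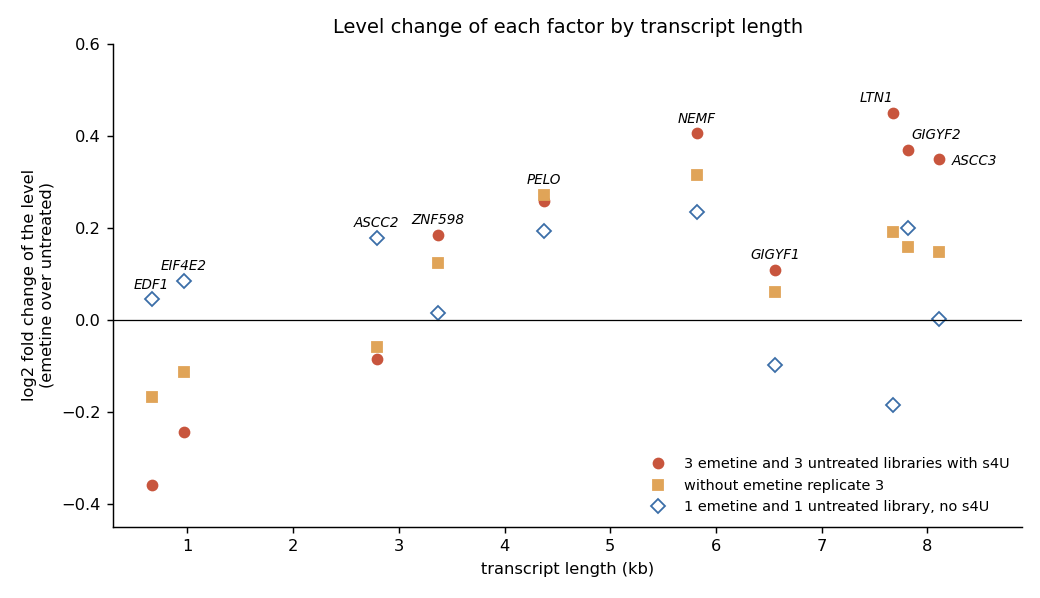
Log2 fold change of the level of each gene (vertical axis) by the length of its transcript in kb (horizontal axis), from all 6 libraries with s4U (red), without emetine replicate 3 (orange) and from the 2 libraries without s4U (open blue). The red points lie at −0.36 for *EDF1*, the shortest transcript, and at 0.35 for *ASCC3*, the longest, and the orange points lie closer to 0 for every gene except *PELO*. With spike-in scaling the red points of *EDF1*, *EIF4E2* and *ASCC2* would lie at 0.30 (SE 0.45), 0.42 (SE 0.46) and 0.57 (SE 0.46).

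A further readout was the share of a gene's reads that crossed a splice junction. It set emetine replicate 3 apart for the longest members and for the shorter *ZNF598* and *ASCC2*. For *GIGYF1* it was 30.3% there, against 6.53% to 11.5% in the other 7 libraries of the 1 h experiment. For *LTN1* it was 38.6% against 16.5% to 19.2%, and for *GIGYF2* 43.0% against 21.0% to 31.9%. *ASCC3* was at 55.2% against 31.9% to 43.7%, *ZNF598* at 36.9% against 23.7% to 33.7% and *ASCC2* at 58.9% against 43.9% to 55.6%. In *PELO* the same library had 10.7% against 10.6% to 14.5%, within the range of the others. *EDF1*, *EIF4E2* and *NEMF* in replicate 3, at 65.5%, 54.0% and 60.1%, were also within the range of the others. Over all genes with 100 reads in each library the median share was 34.8% in emetine replicate 3 and 21.5% to 30.8% in the others.

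**Figure D5:**
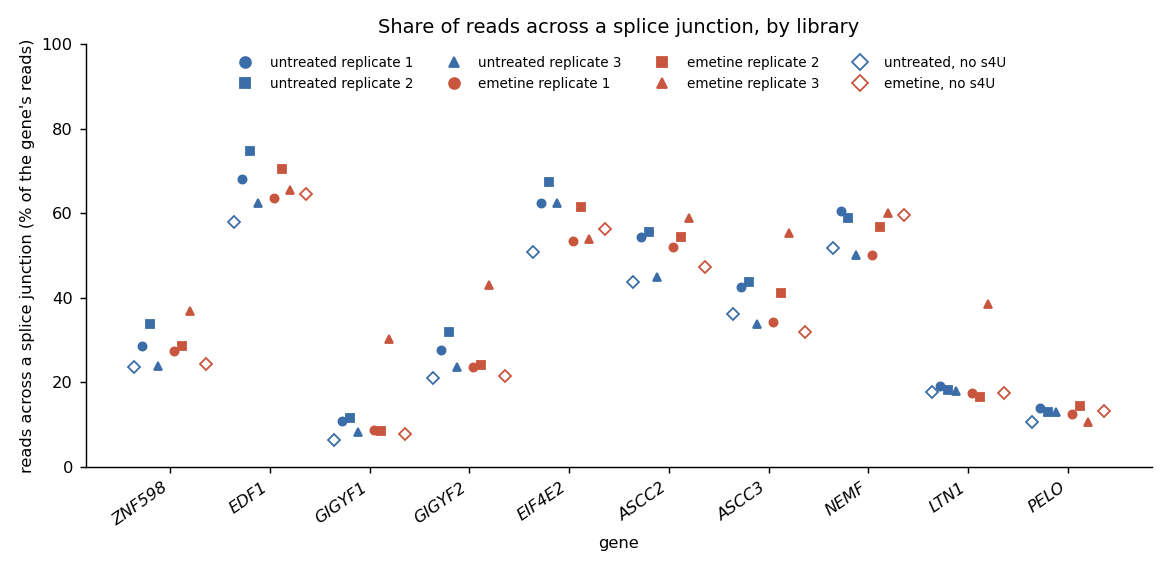
Share of each gene's reads that crossed a splice junction (percent, vertical axis) in the 8 libraries of the 1 h experiment. Emetine replicate 3 (red triangles) lies above all other libraries for *ZNF598*, *GIGYF1*, *GIGYF2*, *ASCC2*, *ASCC3* and *LTN1*, and within their range for *EDF1*, *EIF4E2*, *NEMF* and *PELO*.

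The single libraries without s4U gave a look at the same levels without labeling, with no replicate check. Of the 10 genes, 8 were higher in the emetine library, among them *ASCC3*, *ZNF598* and *EDF1* at ratios of only 1.00, 1.01 and 1.03. The share of all genes that were higher there was not computed. *PELO* was at 49.9 CPM in the untreated and 57.0 CPM in the emetine library, and *NEMF* at 28.3 and 33.3 CPM, ratios of 1.14 and 1.18. *LTN1*, at 29.8 and 26.2 CPM, and *GIGYF1*, at 92.4 and 86.3 CPM, were lower in the emetine library. *EDF1* was at 292 and 301 CPM and *EIF4E2* at 109 and 116 CPM, the other direction from the libraries with s4U. The emetine effect with s4U minus that without it was fitted as an interaction over all 8 libraries in edgeR. It ran from −0.40 (*EDF1*) to 0.64 (*LTN1*) log2 units over the 10 genes. With 1 library in each group without s4U, this fit cannot tell whether the emetine effect differed with s4U.

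Further genes of the pathway did not pass the threshold either. Of 38 further genes of collision signaling, ribosome ubiquitylation, splitting, peptide control and mRNA decay, 0 had a changed level and 0 a changed fraction new at an adjusted p under 0.05, by edgeR and limma. At an unadjusted p under 0.05, 4 were higher and 2 lower in level, where 14.9% of all genes were higher and 6.95% lower, and 3 were lower in fraction new, where 15.4% of all genes were. DESeq2's Wald test also called 0 for the level. The median log2 fold change of the list was 0.03, beside 0.030 for all genes. Without untreated replicate 1, 6 of the 38 were called lower in fraction new, where 23.5% of all genes were, and without emetine replicate 3, 1 was called higher in level, where 10.1% of all genes were. The gene called for the level was *ANKZF1*, which releases peptides from stalled ribosomes, and like the others it is named after its values were seen. The genes called for fraction new were *ANKZF1* (mean of 3 libraries 18.3% in untreated and 11.96% with emetine), the deubiquitinase *OTUD3* (41.1% and 29.6%), the ubiquitin ligases *RNF25* (25.1% and 18.0%) and *MKRN1* (22.4% and 16.6%), the ligase adaptor *KLHDC10* (15.7% and 12.9%) and the nuclease *N4BP2* (16.8% and 10.95%). With all 6 libraries their adjusted p-values in limma ran from 0.2002 to 0.787.

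For the sensors, the genes with the nearest level pattern were sought among all genes tested, by the root mean square difference of log2 CPM after each gene was centered on its mean over the 8 libraries. For *ZNF598* these were *SPIN3* (0.035), *JAG2* (0.039) and *SIN3B* (0.040), where the median over all genes was 0.207. For *EDF1* they were *CENPW* (0.019), *PPIH* (0.020) and *MYL6* (0.023), with a median of 0.316. The smallest distances among all genes are small by selection, and the *EDF1* pattern includes its low value in emetine replicate 3. Whether these genes share more than the deviation of that library was not tested.

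In the 2 h experiment, whose libraries were made from total RNA with another kit and scaled by spike-in reads, the authors' mean of normalized counts over the 2 h libraries was the value used here, and it is not separated by dose. It was 5408 for *ASCC3*, 4716 for *LTN1*, 2526 for *GIGYF2* and 2094 for *ZNF598*. *NEMF* (1377), *ASCC2* (1188), *GIGYF1* (891), *EIF4E2* (834), *PELO* (605) and *EDF1* (560) had lower means. Per kilobase of transcript, *EIF4E2* (863) and *EDF1* (845) stood at the top as they did at 1 h, and *GIGYF1* (136) and *PELO* (138) at the bottom, while *ASCC3* (667) and *LTN1* (614), among the 3 lowest of the 1 h order, ranked the third and the fifth from the top at 2 h. *ASCC2* (426 per kilobase) stood below *ASCC3* at 2 h, the reverse of the 1 h order. The 1 h order comes from untreated libraries alone, while the 2 h means also pool libraries with emetine. The experiments were also normalized separately and prepared with different kits, so these orders are given side by side and were not compared by a test.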

How the data were processed

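Libraries were assigned to groups from the emetine dose, the time and the replicate given in each label. The deposited 1 h counts name their libraries by treatment and number, without a time. They were matched to the 1 h samples because only that experiment has libraries without s4U. For the 1 h experiment (TruSeq Stranded mRNA kit), the authors trimmed adapters with cutadapt, mapped reads to hg38 with hisat-3n and tallied T-to-C conversions with bam2bakR. Its values, as deposited, are raw read counts. For the 2 h experiment, the signal used is the authors' mean of normalized counts, scaled by ERCC spike-in reads. The other columns of the 2 h tables hold the authors' fold changes, errors and p-values and were not used.

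Reads were added up per gene. Levels (CPM) were compared between 3 untreated and 3 emetine libraries with s4U in edgeR 4.0.16 (TMM, quasi-likelihood test, R 4.3.3) over the 13776 genes whose total exceeded 100 counts. The fraction new was fitted in Python 3.11.15 from a binomial mixture of old and new reads, with the background rate from the library without s4U of the same treatment. Its logit, bounded at 0.001 and 0.999, and log2(CPM + 0.5) of the labeled and of the unlabeled reads, entered limma 3.58.1 (trend, robust) for the 10763 genes that every library covered with 100 reads or more. For fraction new and labeled reads, limma drew most of the spread from all genes together. The SEs and intervals of these measures thus say little about the spread of a gene's own libraries. The threshold was an adjusted p of 0.05 (Benjamini-Hochberg over all genes tested). The half-life in hours is −ln(2)/ln(1 − fraction new) for the 1 h label. Ratios were compared by a two-sided exact permutation test, which cannot give a p under 0.1 for 3 libraries against 3. The steps were tested on simulated data.

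Coordinates, transcript lengths and 3′ UTR sequences were taken from GENCODE 44, whose assembly, GRCh38, is the same as hg38. All 10 genes and the 38 pathway genes matched, the latter partly by older symbols. No protein sequence was used. The 10 genes and the gene lists were chosen with earlier results of these data known. The genes named are the 10, pathway genes past the threshold, and the 3 nearest in level pattern to each sensor; others are marked as named after their values were seen. Alternatives were DESeq2 1.42.0, other scalings and filters, other estimators of the fraction new, a trend on length and GC content removed with mgcv 1.9.3, the replicate number as a block, and each library left out in turn. The s4U interaction, the splice junction share and the read types of *PELO* were added after seeing the data. Counting intervals are Wilson intervals at 95% and floors are 3 counts. No molecular identifiers are described, so both cover counting error only.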

Additional observations from a re-analysis of the deposited data

How the results depend on the processing

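Over the alternatives, no more than 2 of the 10 genes were ever called for level and no more than 1 for fraction new. For level, DESeq2's Wald test called 1 gene and leaving out single libraries 0 to 2, and the replicate block called 0, as did the other normalizations, filters, spike-in scaling and the removal of a length and GC trend. For fraction new, leaving out single libraries gave 0 to 1 genes. For labeled reads it gave 0 to 2 and for unlabeled reads 0 to 1. Of the 38 pathway genes, 0 to 1 were called for level and 0 to 6 for fraction new when single libraries were left out, and 1 (*OTUD3*) was lowered in fraction new after centering, where 6.95% of all genes were. Between 1 and 2 of the 3 gene ratios had groups that did not overlap.

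The deviations of same-numbered libraries from their group means correlated at 0.083, 0.019 and −0.118, beside −0.196 to 0.107 for libraries of different numbers. These values show no pairing by replicate number. They cannot exclude one, because each group has 3 libraries and emetine replicate 3 dominates the deviations of its group. With the replicate block, *PELO* had an adjusted p of 0.000635 for fraction new and 0.0430 for unlabeled reads by limma, and no call of the 10 genes changed.

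Values that turned in sign were all from comparisons that had not passed the threshold. With spike-in scaling the log2 changes in level became 0.30 (*EDF1*, SE 0.45), 0.42 (*EIF4E2*, SE 0.46) and 0.57 (*ASCC2*, SE 0.46). Those in labeled reads became 0.42 (*ZNF598*), 0.017 (*EDF1*), 0.22 (*EIF4E2*), 0.49 (*ASCC2*) and 0.079 (*PELO*), and those in unlabeled reads 0.25 (*EDF1*), 0.38 (*EIF4E2*) and 0.55 (*ASCC2*). Centering put the logit change in fraction new at 0.095 (*GIGYF1*), 0.035 (*GIGYF2*), 0.027 (*EIF4E2*), 0.092 (*ASCC2*), 0.066 (*ASCC3*), 0.026 (*NEMF*) and 0.072 (*LTN1*). With the length and GC trend removed the level change of *GIGYF1* was −0.010, and −0.0083 with the replicate block as well. Leaving out single libraries moved the change in fraction new between −0.13 and 0.13 (*GIGYF1*), −0.35 and 0.085 (*GIGYF2*), −0.13 and 0.13 (*ASCC2*), −0.17 and 0.089 (*ASCC3*), −0.30 and 0.11 (*NEMF*) and −0.090 and 0.016 (*LTN1*). It moved the change in labeled reads between −0.35 and 0.056 (*ZNF598*), −0.057 and 0.31 (*GIGYF1*), −0.050 and 0.42 (*GIGYF2*) and −0.22 and 0.060 (*ASCC2*), and the log2 ratio of *NEMF* to *LTN1* between −0.098 and 0.13. The causes were not tested.

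Over all genes, DESeq2 called 820 raised and 156 lowered in level, and 756 and 552 were called with the length and GC trend removed, beside 363 and 6.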
